A study of Mus musculus with 4 samples.

Results

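The genes described are 8, of 12393 with a probe set of their own on the array, that carry the fat-cell programme: the transcription factors Cebpa, Cebpb, Cebpd and Pparg, and Fabp4, Cd36, Lpl and Adipoq, which serve fatty acid uptake and the mature adipocyte. They were read from every probe set to which the platform annotation gives exactly 1 of these symbols and no other, 16 of the 22690 on each array. RNA came from mouse embryonic fibroblasts, cells cultured from embryos that can turn into adipocytes when given hormonal inducers. All 4 samples carried the retroviral vector pBabePuro, which confers puromycin resistance. It was empty in the 2 samples named control and contained mTert, the catalytic subunit of mouse telomerase, in the 2 samples named mTert. Within each group the titles number the samples 1 and 2; the labels give no mouse strain, embryo age, passage or inducing medium, and do not say what a number stands for. In this vector the viral long terminal repeat drives the insert, and the labels do not say whether a sample was a pool of infected cells or a clone. Because nothing says that the samples of a group came from separate cultures, every p-value below measures only the spread between these arrays. In mTert against control that spread includes the difference between the numbers. Arrays of the same number correlated across groups at a Pearson r of 0.984 (number 1) and 0.9836 (number 2). Within a group r was 0.9715 between the controls and 0.9712 between the mTert samples.

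Adipocyte formation proceeds as a relay. Cebpb and Cebpd, 2 bZIP factors of the C/EBP family, are induced first by hormones and in turn switch on Pparg, a nuclear receptor, and Cebpa, which then sustain each other. Together these activate the genes of fatty acid handling: Lpl encodes the secreted lipase that frees fatty acids from circulating triglycerides, Cd36 the membrane protein that takes them up, Fabp4 their carrier in the cytosol and Adipoq the hormone adiponectin. Several of them are not restricted to fat: Lpl, Cd36 and Fabp4 are also made by macrophages, and Cd36 and Fabp4 by endothelial cells.

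Tert, measured by 1 probe set, had signals of 128 and 84.7 in control 1 and control 2, both absent calls, and 1165 and 845 in mTert 1 and mTert 2, both present, at least 9.53-fold higher in mTert. Signals are in scaled arbitrary units, and each probe set carries the authors' call of present, marginal or absent on each array. Between 51.6% and 54.4% of the probe sets that are not controls were called present per array. The record of control 1 gives 5 µg of labelled cRNA and those of the other arrays 15 µg. Of 16 fibroblast and preadipocyte markers 15 were on the array and 14 of these, including Col1a1, Col3a1, Vim, Pdgfra and Thy1, were present on all 4 arrays. Of 14 mature adipocyte markers 11 were on the array, among them Adipoq, Lep, Retn, Cidec and Slc2a4, and 0 of the 11 were present on any array. Macrophage markers separated the arrays by number, and their values are given after those of Lpl and Cd36.

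Of the 16 member probe sets 10 were called present on at least 2 arrays and were tested, covering Cebpa, Cebpb, Cebpd, Fabp4, Cd36 and Lpl. The other 6 were present on no array. They were the only probe sets of Pparg and of Adipoq, 2 of the 4 of Fabp4, 1 of the 2 of Cebpd and 1 of the 3 of Cd36.

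The sequences of 3 promoters are shown because they belong to the member with the widest difference between arrays among tested probe sets (Cd36) and to both members not above background on any array (Pparg, Adipoq). RefSeq's GRCm38.p6 table held 7 windows for 5 of the 8 members. Each run is the 250 bases before an annotated start, 5′ to 3′ on the gene's strand. For Pparg it is the start farthest along the gene of the 3 in the table. Capitals mark matches on either strand to 5 motifs: the TATA box (TATAAA), the CCAAT box by its own letters, the core bound by C/EBP factors (TTGCNNAA), the core of the myeloid factor PU.1 (GAGGAA) and the nuclear receptor half-site (AGGTCA).
Cd36, chr5:17835897-17836146, minus strand: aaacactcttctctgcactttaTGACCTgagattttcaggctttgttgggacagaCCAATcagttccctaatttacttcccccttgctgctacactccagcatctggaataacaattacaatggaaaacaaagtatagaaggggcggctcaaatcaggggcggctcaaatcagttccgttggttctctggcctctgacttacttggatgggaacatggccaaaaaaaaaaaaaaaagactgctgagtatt
Pparg, chr6:115421816-115422065, plus strand: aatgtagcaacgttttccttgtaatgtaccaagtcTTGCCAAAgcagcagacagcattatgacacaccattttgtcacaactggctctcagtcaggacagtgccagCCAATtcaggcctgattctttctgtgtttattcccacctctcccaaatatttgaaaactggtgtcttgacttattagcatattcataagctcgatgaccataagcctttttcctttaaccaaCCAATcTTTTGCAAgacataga
Adipoq, chr16:23146286-23146535, plus strand: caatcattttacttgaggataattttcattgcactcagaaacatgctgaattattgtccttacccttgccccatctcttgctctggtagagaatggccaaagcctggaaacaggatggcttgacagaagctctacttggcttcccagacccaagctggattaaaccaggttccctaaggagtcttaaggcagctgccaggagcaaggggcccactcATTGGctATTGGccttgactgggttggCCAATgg
The Pparg window held 2 C/EBP-type cores, starting 215 and 16 bases before the start, and 2 CCAAT boxes. The windows of the other 2 Pparg starts held 0 C/EBP-type cores. The Cd36 window held 1 half-site 228 bases and 1 CCAAT box 195 bases before the start, and the Adipoq window 3 CCAAT boxes. Of all 32851 windows of this length in the table, 9.56% held the C/EBP-type core, 33.8% a CCAAT box, 14% the half-site, 23.3% the PU.1-type core and 12.4% a TATA box. A match is a run of letters, and no binding was measured.

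Among the early regulators, Cebpb was present on every array. Its brighter probe set (1418901_at) had 1845 and 2058 in control and 1633 and 2111 in mTert, with number 1 first in each pair. The control and mTert signals overlapped, whereas both arrays numbered 2 lay above both numbered 1. The second probe set (1427844_a_at) had 537, 569, 526 and 614 in the same order and gave the same arrangement. Cebpd, read by 1423233_at, had 542 and 659 in control and 603 and 735 in mTert. Its other probe set, 1456605_at, was absent on all arrays, at 143 to 357.

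The later regulators differed from each other. Cebpa (1418982_at) was present throughout, with 551 and 753 in control and 453 and 496 in mTert. Both mTert signals lay below both controls, the only tested member probe set with this pattern. Pparg, with 1 probe set, had 9.40, 14.3, 15.9 and 18.4 in the same order, all absent calls with detection p-values between 0.534 and 0.85. No level can be given for it beyond not above background in any sample, and no fold.

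Of the target genes, Fabp4 gave low signals. Its brightest probe set (1417023_a_at) had 173 and 132 in control and 163 and 231 in mTert, and the next (1451263_a_at) 120, 106, 107 and 170. On both, mTert 2 was highest and control 2 lowest, so that the groups overlapped. The remaining Fabp4 probe sets, 1425809_at and 1424155_at, were absent on every array, at 20.9 to 117. Adipoq stood at 42.3, 11.5, 5.20 and 5.50, all absent.

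Lpl (1415904_at) had 845 and 1811 in control and 809 and 1694 in mTert. The arrays thus fell into pairs by number, and within a number control and mTert were nearly equal. The second probe set (1431056_a_at) had 159, 273, 164 and 345 in the same order, again with both arrays numbered 2 above both numbered 1. Cd36 showed the same split on 2 of 3 probe sets, at lower signals. On 1450883_a_at it had 21.3 and 23.1 in control 1 and mTert 1, both absent, and 72.2 and 69.6 in control 2 and mTert 2, both present. On 1423166_at, absent everywhere, it had 19.6 and 28.5 against 78.7 and 69.2. On 1450884_at control 1 was low at 24.1, while control 2, mTert 1 and mTert 2 had 49.8, 51.2 and 43.4, so this probe set did not follow the number.

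**Figure D1:**
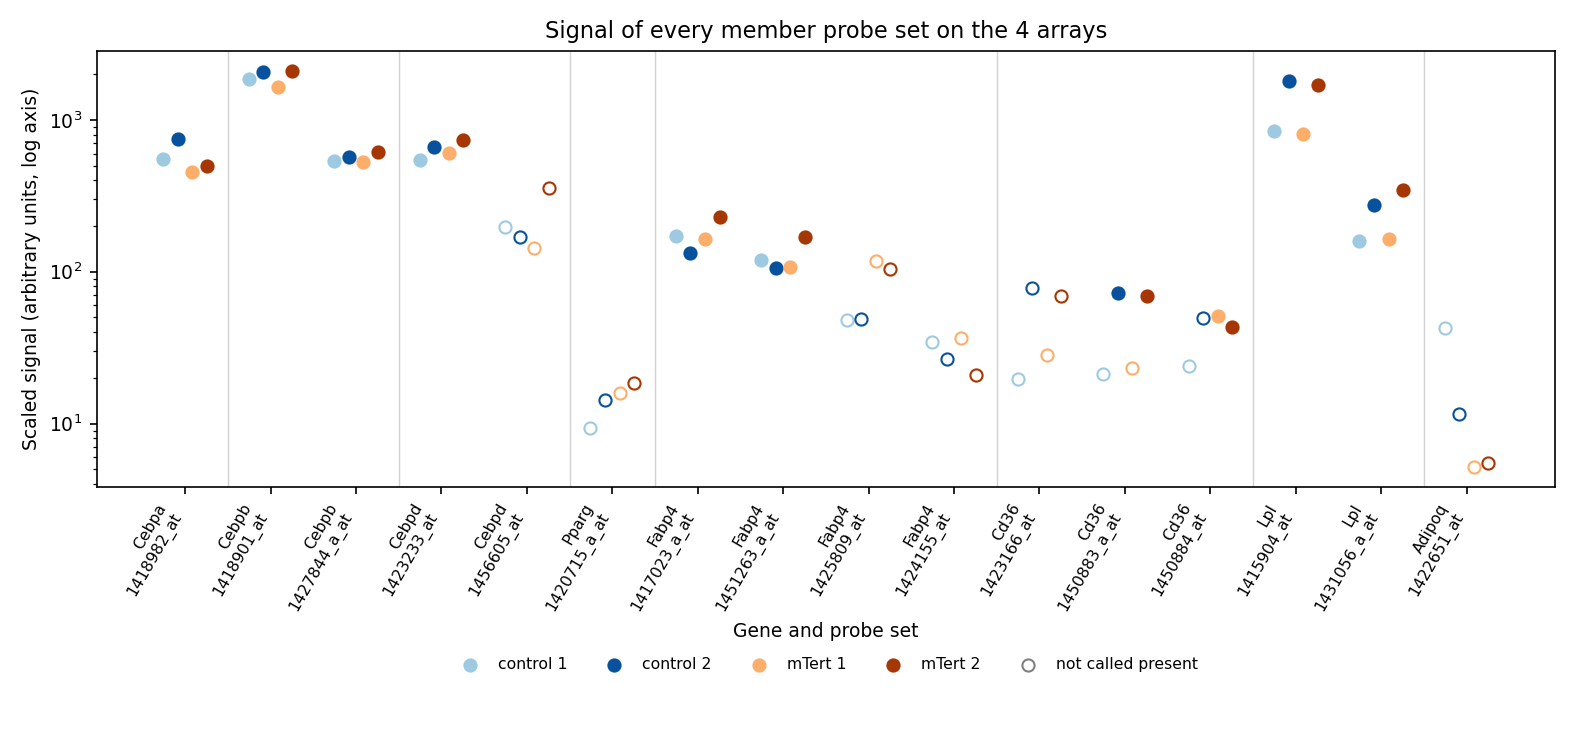
Scaled signal (log axis) of all 16 member probe sets on control 1, control 2, mTert 1 and mTert 2; filled points were called present, open points were not. Lpl and 2 of 3 Cd36 probe sets are higher on both arrays numbered 2 (Lpl 1415904_at, 1811 and 1694 against 845 and 809). Of these Cd36 probe sets, 1423166_at is open on every array and was not tested. Pparg and Adipoq are also open on every array.

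The first comparison asked whether these genes differ in fibroblasts that carry mTert. None of the 6 measured genes passed the test. Cebpa came nearest, with 652 ± 143 in control and 475 ± 30.4 in mTert (mean ± SD, n = 2), a log2 difference of -0.44 (SE 0.19), or 1.36-fold lower, and an unadjusted limma p of 0.0566 (adjusted p = 1). Cebpb stood at 1952 ± 150 and 1872 ± 338, a log2 difference of -0.07 (SE 0.15), and Cebpd at 601 ± 82.7 and 669 ± 93.4, a difference of 0.16 (SE 0.17). Fabp4 had 152 ± 28.8 and 197 ± 47.5, a log2 difference of 0.36 (SE 0.26). Its second probe set stood at 0.26 (SE 0.29), and without mTert 2 they were 0.12 and -0.07. Lpl stood at -0.08 (SE 0.45) and 0.19 (SE 0.42) on its probe sets, and Cd36 at 0.03 (SE 0.77) on 1450883_a_at. The wide errors of Lpl and Cd36 come with the split by number within each group. Cd36 on 1450884_at was absent in both controls and entered the test through the mTert samples, both present. Its means were 37.0 ± 18.2 and 47.3 ± 5.53, with control 2 above mTert 2 and a limma adjusted p of 1. No fold is given for it, since the log2 difference turned to -0.08 without control 1.

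At a limma adjusted p of 0.05 (called, below) 0% of the 12396 tested probe sets were higher and 0% lower, and 0 of 10 member probe sets were called. At an unadjusted p under 0.05, 0 of 10 members passed, beside 0.847% of all probe sets higher (105) and 1.25% lower (155). By chance 619.8 would be expected over both directions, and this fit has no term for the number. With such a term (the replicate block) Cebpa had an unadjusted limma p of 0.0184 at a log2 difference of -0.44. With quantile normalization and no such term its unadjusted limma p was 0.0489, at -0.46. Cebpa was called under neither setting. In 1 of 10 members both mTert arrays lay below both controls and in 0 above, beside 12.1% and 13.4% of all probe sets. Over the 6 genes, each by its brightest tested probe set, the median log2 difference was -0.02, beside 0.006 over all tested probe sets. A difference that misses the threshold with 2 arrays a group does not show that levels were equal.

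The second comparison set the arrays titled 2 against those titled 1, with the group kept in the fit. Both Lpl probe sets and 1 of 2 tested for Cd36 rose. Lpl had 827 ± 25.0 on the arrays numbered 1 and 1753 ± 82.5 on those numbered 2 (n = 2 each), a log2 difference of 1.08 (SE 0.13), or 2.12-fold, with a limma adjusted p of 6.6e-05. It ranked 52 by p among all 12396 probe sets. The difference was 2.14-fold between the controls and 2.09-fold between the mTert samples, the latter both from 15 µg of cRNA. The second Lpl probe set had 162 ± 3.81 and 309 ± 50.8, a log2 difference of 0.93 (SE 0.22) with a limma adjusted p of 0.0271. Cd36 on 1450883_a_at had 22.2 ± 1.27 and 70.9 ± 1.84, and because it was absent on both arrays numbered 1 this stands for at least 3.19-fold higher signal on those numbered 2 (limma adjusted p = 0.0482). This probe set entered the test only through the arrays on which it was high.

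The call on the brighter Lpl probe set held with any 1 array left out, where the limma adjusted p ran from 0.00105 to 0.0313, and was lost without the intensity trend (adjusted p = 0.062). The other calls held under fewer settings. With an offset of 50 before log2, Cd36 on 1450883_a_at fell to a log2 difference of 0.74 and stayed called (limma adjusted p = 0.0493). With no filter on calls the limma adjusted p of the second Lpl probe set was 0.148 and that of Cd36 0.271. With quantile normalization these limma values were 0.0588 and 0.0874. Without the group term the limma adjusted p of the second Lpl probe set was 0.0646 and that of Cd36 0.0807. With 1 array left out they ran from 0.0935 to 0.324 and from 0.118 to 0.35, each above the threshold, at log2 differences of 0.76 to 1.09 and 1.62 to 1.73.

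The regulators and Fabp4 did not pass. Cebpb stood at a log2 difference of 0.26 (SE 0.12) with a limma adjusted p of 0.438, and its second probe set at 0.15 (SE 0.17). Cebpd stood at 0.28 (SE 0.16, adjusted p = 0.649) and Cebpa at 0.29 (SE 0.17, adjusted p = 0.678) by limma. Fabp4 stood at 0.05 (SE 0.26) and 0.25 (SE 0.29), with control 2 below control 1 and mTert 2 above mTert 1 on both probe sets. Cd36 on 1450884_at stood at 0.40 (SE 0.46).

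In this comparison 3 of 10 member probe sets were called higher and 0 lower, beside 1.75% (217) and 1.1% (136) of all tested probe sets. At an unadjusted p under 0.05, 4 of 10 were higher and 0 lower, beside 5.25% and 4.99%. Both arrays numbered 2 lay above both numbered 1 in 6 of 10 and below in 0, beside 20.3% and 19.5%. The median over the 6 genes was 0.29 on the log2 scale, beside 0.00 over all tested probe sets. These counts include probe sets of the same gene, which share their transcript, and 1 that entered through its high arrays.

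**Figure D2:**
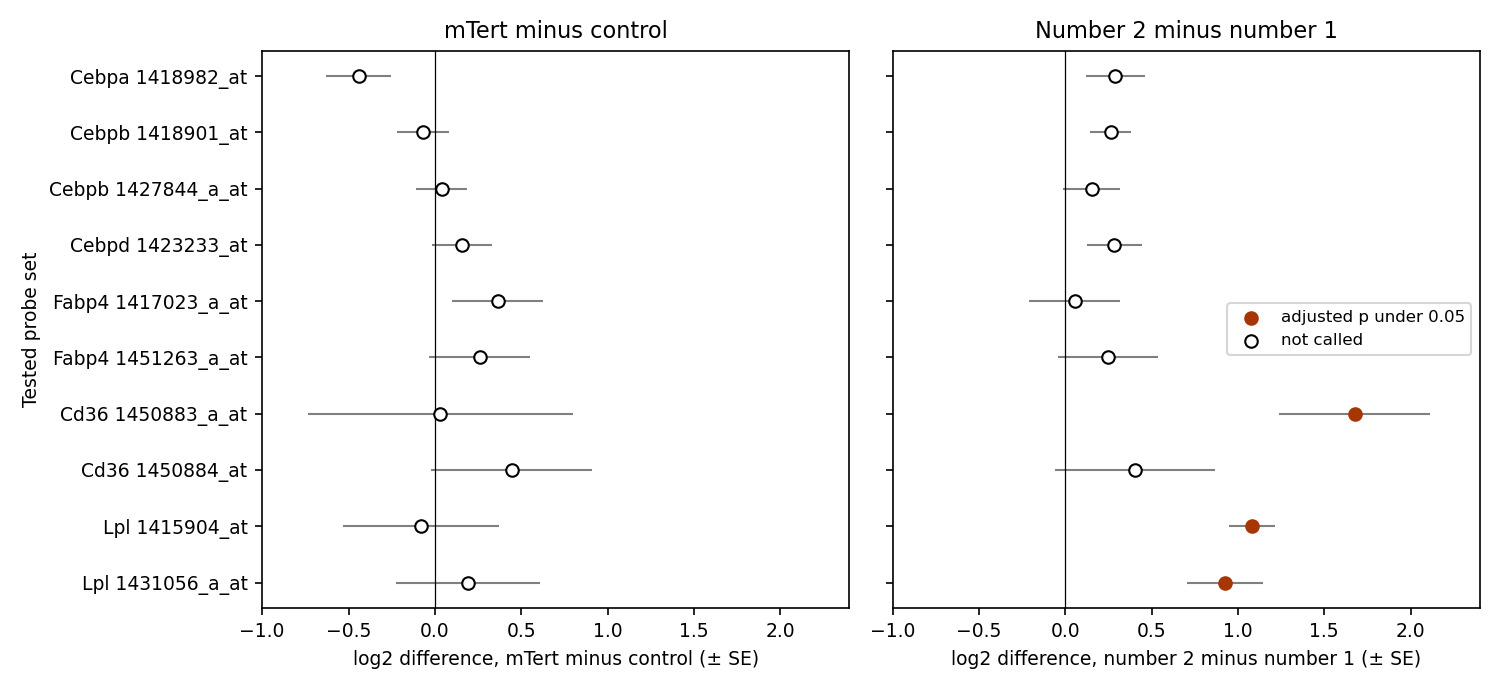
Log2 difference ± SE by limma for the 10 tested member probe sets, mTert minus control on the left and number 2 minus number 1 on the right; filled points have an adjusted p under 0.05. On the left all points are open, with Cebpa lowest at -0.44; on the right both Lpl probe sets (1.08 and 0.93) and Cd36 1450883_a_at (1.68, against absent signals) are filled.

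Macrophage genes moved with the number as well. Of 20 macrophage and myeloid markers on the array 17 were tested. Of these, 8 were absent on both arrays numbered 1 and entered the test only through those numbered 2, so that their rise was built in; C1qa, a complement subunit, was at least 32.3-fold higher there. The other 9 were all higher on the arrays numbered 2 and 8 of them were called, beside 1.75% of all tested probe sets called higher. Their log2 differences ran from 0.79 for Spi1, the myeloid factor PU.1, which was not called, to 2.64 for Ctss, the protease cathepsin S. The summed signal of the 20 markers was 4119 in control 1 and 4746 in mTert 1, against 18786 in control 2 and 19526 in mTert 2. Lyz2, lysozyme, had 737 and 874 on the arrays numbered 1 and 3432 and 4058 on those numbered 2. Cd68 had 172 and 190 against 718 and 825. Itgam and Aif1 were present on no array. The part of macrophage RNA in the rise of Lpl and Cd36 was not tested, and in such bulk samples more cells of a type cannot be told apart from more RNA per cell. In mTert against control 0 of the 17 were called and their median was 0.11. Between numbers the median of the 17 was 2.18, which includes the 8 whose rise was built in.

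Markers of other cells gave less. Of 13 endothelial markers on the array 4 were tested and 0 called between numbers, with a median of 0.56. All 4 were higher on both arrays numbered 2, an arrangement found in 20.3% of all tested probe sets. The log2 differences were 0.94 for Tek, 0.87 for Ramp2 (limma adjusted p = 0.0501), 0.24 for Kdr and 0.12 for Egfl7. By its calls Kdr went the other way, present on both arrays numbered 1, marginal on control 2 and absent on mTert 2. Pecam1, Cdh5, Tie1 and Vwf were present on no array. The summed endothelial signal was 1068 and 1358 on the arrays numbered 1 and 1679 and 1509 on those numbered 2. Of 10 muscle markers 2 were tested, at a median of -0.12 between numbers, with 0 called, and Myod1 and Myog were present on no array. The 11 mature adipocyte markers summed to 933 and 1146 on the arrays numbered 1 and 1130 and 860 on those numbered 2. Among 14 tested fibroblast and preadipocyte markers 1 was called higher and 2 lower on the arrays numbered 2, beside 1.75% and 1.1% of all tested probe sets. S100a4 was higher (0.36, limma adjusted p = 0.0432), and Thy1 (-0.68, limma adjusted p = 0.00117) and Dcn (-0.51, limma adjusted p = 0.013) were lower. The median of the 14 was -0.05. The summed signals overlapped, at 101800 and 97673 against 97813 and 93970. In mTert against control the medians of the endothelial, muscle and fibroblast markers were -0.03, -0.10 and -0.04, with 0 called.

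**Figure D3:**
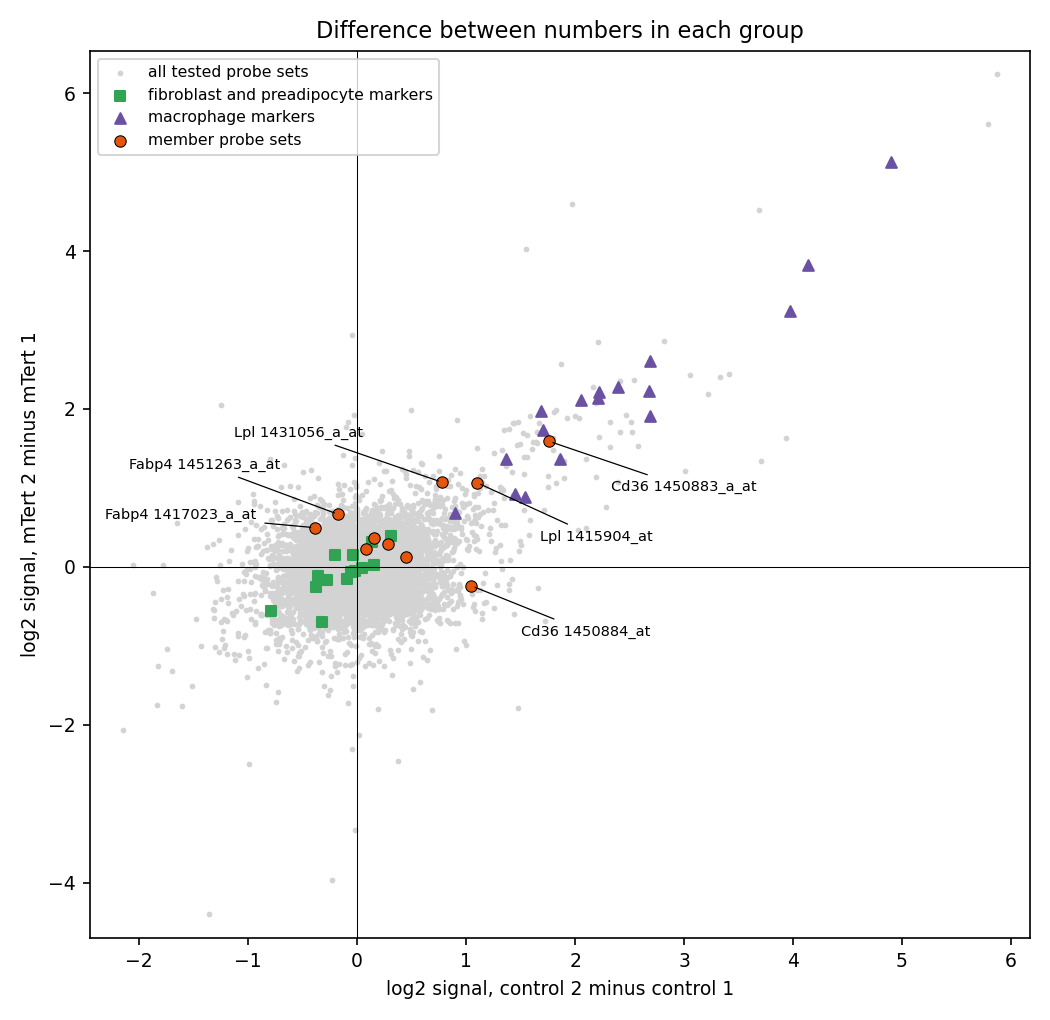
Log2 difference between the arrays numbered 2 and 1, in control (x axis) and in mTert (y axis), for all 12396 tested probe sets (grey), macrophage markers (triangles), fibroblast and preadipocyte markers (squares) and the member probe sets (circles). Lpl (1.10 and 1.07 for 1415904_at) lies in the upper right, as do Cd36 1450883_a_at and the 17 macrophage markers, with Cd36 and 8 of these markers set against absent signals on the arrays numbered 1, while both Fabp4 probe sets are negative in control and positive in mTert.

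The wider programme was read from 4 lists. They were chosen with earlier results of these data known, so their counts beside the shares of all probe sets are a description only. Regulators that restrain adipogenesis had 26 tested genes, of which 0 were called higher and 2 lower on the arrays numbered 2, beside 1.75% and 1.1% of all tested probe sets. Dlk1, the preadipocyte factor that is lost as fat cells form, had 4477 and 3625 in control and 5579 and 1963 in mTert. Both arrays numbered 2 lay below both numbered 1, by far most in mTert 2. Its log2 difference was -0.91 (SE 0.17), with a limma adjusted p of 0.00505 that rose to 0.301 without mTert 2 (-0.46) and 0.166 without the group term. Twist2, a helix-loop-helix repressor, had 1181, 564, 1069 and 760 in the same order. Its difference was -0.78 (SE 0.16), with a limma adjusted p of 0.0102 that was 0.237 without control 2 and 0.0646 without the group term. The nuclear receptor Nr2f1 followed at -0.59 (SE 0.22, limma adjusted p = 0.256). The list's median between numbers was -0.004. In mTert against control 0 were called, 15 of 26 were lower in sign and the median was -0.07. At an unadjusted p under 0.05, 3 were lower and 0 higher, beside 1.25% and 0.847%. These were Bhlhe40 at -0.59 (SE 0.10), the Notch target Hes1 at -0.44 (SE 0.09) and Klf2 at -0.45 (SE 0.14), each below both controls on both mTert arrays.

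Regulators that promote adipogenesis had 25 tested genes. In mTert against control 0 were called and the median was -0.06. At an unadjusted p under 0.05, 3 were lower and 0 higher, beside 1.25% and 0.847% of all tested probe sets. Since this list too was chosen with earlier results known, the count is a description only. The 3 lower genes were Egr2, also known as Krox20, at -1.07 (SE 0.16), Klf4 at -0.50 (SE 0.09) and Klf9 at -0.40 (SE 0.09). These factors act upstream of Cebpb or Pparg, and Egr2 and Klf4 are also immediate-early genes. With a replicate block Egr2, Klf4 and Bhlhe40 passed by limma (adjusted p = 0.00279, 0.0424 and 0.0424). Cebpb itself stood at -0.07 in the fit without the block. Between numbers 0 were called and the median was -0.04. Stat5a (0.58, SE 0.20), Rxra (0.40, SE 0.17), the partner with which Pparg binds DNA, and Stat5b (0.39, SE 0.18) had the smallest p, all higher on both arrays numbered 2.

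Genes of lipid uptake and binding other than the members had 21 tested genes, with medians of 0.01 in mTert against control and 0.03 between numbers and 0 called in either. Between numbers the smallest p belonged to Apoe, Cav1 and Slc27a3. Apoe, a lipoprotein ligand that macrophages also make, and Slc27a3, a fatty acid transporter, were absent on both arrays numbered 1 and entered the test only through those numbered 2. They were at least 1.55-fold and 1.36-fold higher there, and neither was called (limma adjusted p = 0.0794 and 0.449). Cav1, the caveolar protein, stood at -0.29 (SE 0.09). Between groups the smallest p belonged to Lmf1, a maturation factor of Lpl, at 0.31 (SE 0.17), Slc27a4 at -0.28 (SE 0.16) and Got2 at 0.14 (SE 0.09). Genes of the lipid droplet, triglyceride storage and lipolysis had 14 tested of 28 on the array, and the other 14, among them Cidec, Lipe, Gpd1 and Pck1, were present on no array. Their medians were 0.01 between groups and -0.01 between numbers, with 0 called in either. Lpin1, Mgll and Agpat1 had the smallest p between numbers, opposite in sign to Lpl and Cd36. Mgll stood at -0.55 (SE 0.23) and Agpat1 at -0.40 (SE 0.17). Lpin1 was absent on both arrays numbered 2 and entered the test only through those numbered 1, on which it was at least 1.51-fold higher. Between groups Agpat1 (0.23, SE 0.22), Hilpda (0.23, SE 0.33) and Agpat3 (-0.07, SE 0.13) had the smallest p.

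Genes were also ranked by how closely their 4 values follow those of a member, for the 2 members of widest range among the leading probe sets tested. Likeness was the root mean square distance between log2 values centred on their own mean, over the 4 arrays and 7265 other genes. Nearest to Lpl were Sirpa at 0.05, Gpr137b-ps at 0.06, Comp at 0.08, Dkk2 at 0.08 and Wdr77 at 0.10. Sirpa had 552 and 1237 in control and 551 and 1222 in mTert. In the same order Gpr137b-ps had 113, 238, 118 and 225, and Comp 587, 1296, 568 and 1345. Dkk2 had 771, 1680, 651 and 1443, and Wdr77 572, 1020, 487 and 1046. Which cells made these RNAs was not tested. Nearest to Fabp4 were Syap1, Shcbp1, Ostf1, Cyp7b1 and Dram1, at 0.07 each. Within a distance of 0.1 there were 5 genes for Lpl and 20 for Fabp4. With 4 arrays such a ranking is a description only.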

How the data were processed

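For each MOE430A array the authors deposited summarised intensities by probe set, with a call and a detection p-value per the file headers; which software made them is not stated there. Their series table held the same intensities, and the arrays had 1 trimmed mean before deposit.

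Signals were scaled to a common mean (2% trimmed at each end, 64 control probe sets left out) and taken to log2; 1 signal at 0 was set to its array's lowest present signal. The 12396 probe sets present on at least 2 of 4 arrays were fitted with limma 3.58.1 in R 4.3.3 (lmFit, eBayes with an intensity trend) and p-values adjusted by Benjamini-Hochberg over all of them. mTert against control had no replicate term; number 2 against 1 had the group as a term, which left 1 residual degree of freedom. On simulated data each fit recovered most planted changes of 2 or more on the log2 scale. The fit for mTert against control recovered 39.6% of planted changes of 1 and 2.4% of those of 0.5. For the numbers these shares were 85.4% and 31.9%. The fit for numbers made more false calls than its threshold allows. Its calls of members, Dlk1 and Twist2 are therefore given with alternatives, whereas those of cell type markers come from the main fit alone. A bound on a fold sets the brighter group's mean log2 signal against, per array of the absent group, the higher of its own and the array's lowest present signal.

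Symbols are those of GEO's platform annotation. Named are every member probe set, the 3 genes of each list with the smallest p in each comparison and the 5 genes most like 2 members; which marker genes to name was decided with their values in view. The members and lists were chosen with earlier results of these data known. The brightest tested probe set stands for a gene in list counts. Promoter sequences are RefSeq's. Alternatives tried were quantile normalization, other filters on calls, no trend, an offset of 50 before log2, a replicate block, no group term and each array left out. The number of arrays limits the precision.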

Additional observations from a re-analysis of the deposited data

Results flagged for a closer look

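In control the arrays numbered 2 and 1 differed in the opposite direction from mTert for 3 tested member probe sets. For Fabp4 the log2 difference between numbers was larger in mTert than in control by 0.884 on 1417023_a_at (0.496 against -0.388) and by 0.838 on 1451263_a_at (0.665 against -0.173). For Cd36 on 1450884_at it was -0.239 in mTert and 1.05 in control, which gives -1.285 as mTert less control; both control signals were absent calls, so the value in control lies between signals not above background. With 1 array per number and group these differences were not tested.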

How the results depend on the processing

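mTert against control gave 0 called probe sets under each alternative but the replicate block, with which limma called 18 (3 higher, 15 lower) and 0 members; the deviations of same-numbered arrays from their group means correlated at 0.373. For number 2 against 1, 353 were called, 192 without the group term, 76 without the intensity trend and from 80 to 206 with 1 array left out. Of the 98 values of member probe sets under alternatives in each comparison, 86 kept direction and side of the threshold in mTert against control and 78 between numbers. Those that changed sign did so only when 1 array was left out, and with 3 arrays the difference between numbers enters the difference between groups, and the reverse.

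With 1 array left out, mTert minus control ran from -0.848 to 0.912 for Cd36 1450883_a_at, -0.079 to 0.967 for 1450884_at, -0.255 to 0.116 for Cebpb 1418901_at, -0.073 to 0.151 for 1427844_a_at and -0.072 to 0.593 for Fabp4 1451263_a_at. It ran from -0.629 to 0.471 for Lpl 1415904_at, -0.343 to 0.728 for 1431056_a_at, -0.035 to 0.488 for Agpat1, -0.140 to 0.001 for Agpat3 and -0.246 to 0.705 for Hilpda. Number 2 minus 1 ran from -0.140 to 0.947 for Cd36 1450884_at, -0.010 to 0.592 for Cebpa, -0.349 to 0.457 for Fabp4 1417023_a_at and -0.094 to 0.585 for 1451263_a_at. Signals near background, as for Cd36, Pparg and Adipoq, limit what these arrays show of those genes. Low signals limit Fabp4 as well, although both its tested probe sets were present on all 4 arrays.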
